A study of Mus musculus with 8 samples.

Results

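The proteasome subunit genes were followed in the tibialis anterior, a fast muscle at the front of the shin, of mice with and without an ablation of Prep1 in skeletal muscle. Members were the genes named Psma, Psmb, Psmc, Psmd, Psme, Psmf or Psmg with a number on the array, without the immunoproteasome genes Psmb8, Psmb9 and Psmb10. They came to 45 genes with 73 probes, of which 43 genes with 67 probes were measured well enough to test, among 16015 genes tested in all. Prep1f/+ mice (n = 4), which carry a floxed Prep1 allele, were set against Prep1deltaSM mice (n = 4). All were C57BL/6 males aged 8 weeks, with 1 single-colour Agilent array per mouse. Which Cre line removed the floxed sequence is not given in the sources used here, and no group without a floxed allele was analysed here. The comparison asks what loss of Prep1, the protein of the Pknox1 gene and a homeodomain partner of Pbx proteins, does to the muscle's transcripts.

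The proteasome is the protease that degrades proteins tagged with ubiquitin. Its 20S core is a barrel of alpha rings, which form the gate, and beta rings, of which a few subunits carry the active sites. The 19S regulatory particle binds ubiquitin chains, removes them and unfolds the substrate with a ring of ATPases, whereas the Psme activators open the barrel without ATPases. In skeletal muscle the proteasome degrades contractile proteins, and the loss of muscle mass in fasting or disuse runs largely through it.

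The probes that the results turn on are shown first, because several genes gave different values at different places of one transcript. The first 4 are the most upstream and the most downstream probes of Psmd2 and Psmc5, and the last is the probe of Psmg4, the member with the smallest p. Each is the deposited probe of 60 bases, 5′ to 3′ on the strand of the transcript, in lower case throughout.
Psmd2 upstream: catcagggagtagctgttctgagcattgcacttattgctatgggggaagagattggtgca
Psmd2 downstream: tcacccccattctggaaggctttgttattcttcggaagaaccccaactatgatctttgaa
Psmc5 upstream: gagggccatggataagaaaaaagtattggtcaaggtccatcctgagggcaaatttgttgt
Psmc5 downstream: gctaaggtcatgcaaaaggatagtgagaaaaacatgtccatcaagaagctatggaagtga
Psmg4: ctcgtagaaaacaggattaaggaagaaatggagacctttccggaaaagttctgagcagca

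In mm9, the build of the files, the Psmd2 probes lie on the plus strand at chr16:20660170-20660469 and chr16:20663260-20663319, and those of Psmc5 on the plus strand at chr11:106122563-106122762 and chr11:106124192-106124376. Psmg4 was probed on the plus strand at chr13:34269918-34269977. The upstream Psmd2 probe spans 300 bases of genome and the Psmc5 probes span 200 and 185, so these 3 probes of 60 bases cross at least 1 intron. Their GC content was similar, at 48.3% and 43.3% for Psmd2 and 43.3% and 40.0% for Psmc5. No annotation of mm9 was used here, so the place of each probe in its exons was not settled.

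Values are log2 signals relative to the 75th percentile of signal on the same array, so a negative value lies below that percentile. Between 23787 and 27123 spots per array were well above background, none was saturated, and the 4 slides held 1 array of each group each. Pknox1, the targeted gene, was at -0.09, -0.31, -0.21 and -0.51 in Prep1f/+ replicates 1 to 4 and at -1.84, -2.08, -2.28 and -1.96 in Prep1deltaSM replicates 1 to 4. This difference of -1.76 ± 0.13 (SE) was the only one among the 16015 genes past an adjusted p of 0.05 (adjusted p = 0.0072 by limma), which is 0.00624% of them. The muscle markers were high on all arrays, with the creatine kinase Ckm at 9.08 ± 0.19 (SD over the 4 Prep1f/+ mice) and 9.24 ± 0.06 (SD over the 4 Prep1deltaSM mice). Prep1f/+ replicates 1 and 4 stood apart from the other 6 arrays on the first principal component, which held 24.4% of the variance (-23.5 and -41.0, against -3.22 to 17.1).

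No proteasome gene differed between the groups at an adjusted p of 0.05. Of the 43 genes tested, 28 had a lower mean and 15 a higher mean in Prep1deltaSM, with a median difference of -0.096 and a range from -0.66 for Psmd13 to 0.46 for Psmb2. All genes tested leaned the same way, with 10042 lower, 5973 higher and a median of -0.067. Among the 1689 genes whose mean signal lay above 4, a limit chosen after the values were seen, the median was -0.097. The smallest adjusted p was 0.13, for Psmg4 (limma).

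At an unadjusted p under 0.05, 7 proteasome genes were lower and 3 were higher in Prep1deltaSM. The background at this threshold was 10.3% of all genes lower and 5.54% higher. Of the 1689 genes with a mean signal above 4, 207 were lower and 31 higher at it. The balance turned under other scalings, to 3 lower and 5 higher with quantile normalization and to 1 lower and 4 higher in the authors' values. The balance of all genes moved as well, to 1302 lower and 1124 higher of 16015 with quantile normalization, against 1654 and 888. In the authors' values it was 922 lower and 854 higher of 11594 genes. The lower count of proteasome genes was 4 without Prep1f/+ replicate 2 or Prep1deltaSM replicate 1 and 3 without Prep1deltaSM replicate 2 or 3. Over all genes the lower count in these fits was 1178 to 1374. The higher count of proteasome genes was 1 without Prep1f/+ replicate 1, 2 or 4 or Prep1deltaSM replicate 1 or 2. Over all genes the higher count in those fits was 641 to 877. The groups did not overlap in 9 genes that were lower, where 6.74% of all genes had such a separation, and in 2 that were higher, where 3.72% had it. Of the 1689 genes with a mean signal above 4, 185 were lower and 35 higher without overlap. For a single gene in 4 against 4 mice the exact two-sided permutation test cannot go below p = 0.0286.

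**Figure D1:**
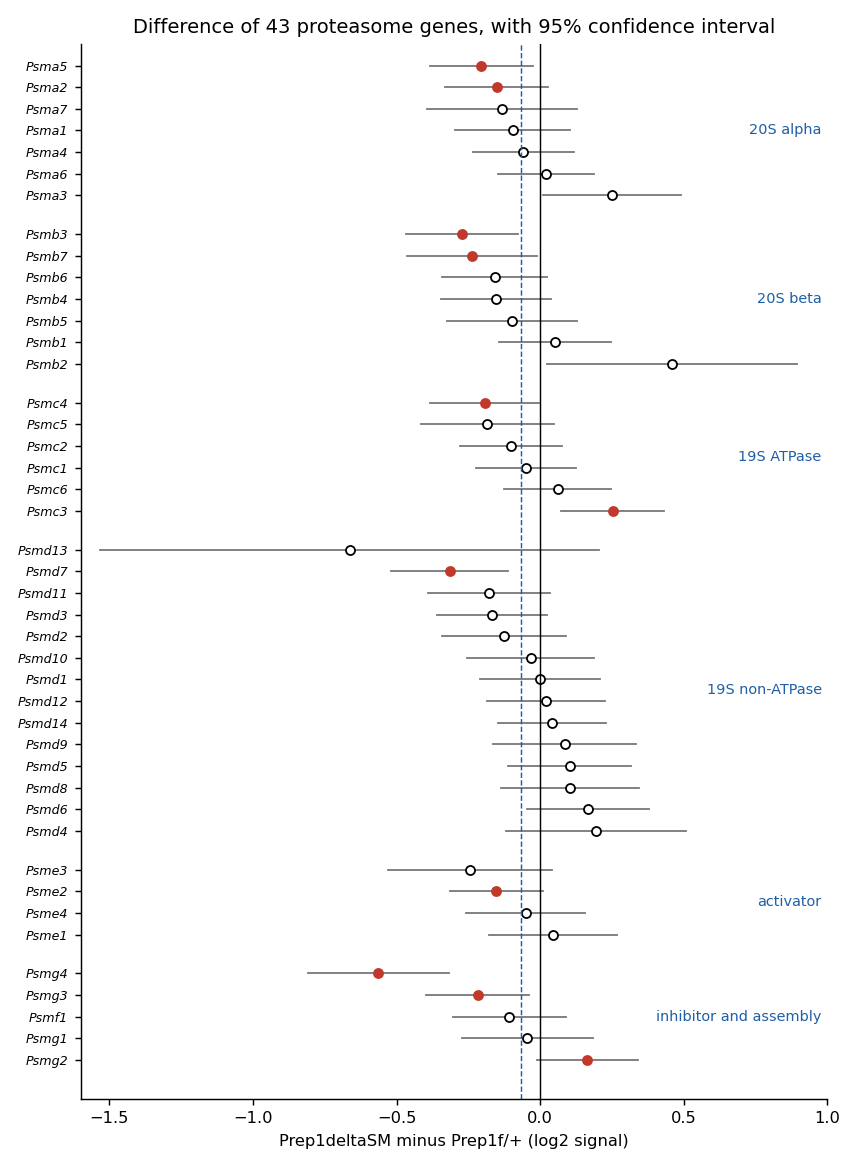
Difference in log2 signal, Prep1deltaSM minus Prep1f/+, for the 43 proteasome genes tested, ordered by class and size. Circles are limma estimates, bars are 95% confidence intervals, red circles mark the 11 genes whose groups do not overlap, and the dashed line is the median of all genes at -0.067. Most circles of the 20S core lie left of 0, while the 19S non-ATPase subunits lie on both sides.

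The 20S core had 14 tested genes, 10 lower and 4 higher in Prep1deltaSM, with a median difference of -0.12. This median was -0.038 with quantile normalization and -0.037 with normexp. Here normexp always means normexp background correction followed by quantile normalization. In the authors' values, which lacked Psmb3, the median was -0.033. In these settings the median of all genes was -0.029, -0.016 and -0.025. The 7 alpha subunits had a median of -0.096 (5 lower and 2 higher) and the 7 beta subunits of -0.15 (5 lower and 2 higher). At an unadjusted p under 0.05, 3 core genes were lower and 2 were higher. The other core genes on the array, Psma8, known as a testis subunit, and Psmb11, known from the thymus, were well above background on 1 and 0 of the 8 arrays and were not tested.

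Among the alpha subunits, which gate the barrel, Psma5 had the smallest p. Its log2 signal was 4.77, 4.89, 4.81 and 4.80 in Prep1f/+ and 4.50, 4.62, 4.65 and 4.69 in Prep1deltaSM, replicates 1 to 4 in each. These ranges were separate, and the difference was -0.20 ± 0.079 (SE, adjusted p = 0.27 by limma). Psma2 was at 6.15, 6.17, 6.24 and 6.12 in Prep1f/+ and at 5.89, 6.08, 6.06 and 6.03 in Prep1deltaSM. All Prep1deltaSM values again lay below all Prep1f/+ values, with a difference of -0.15 ± 0.079 (SE, adjusted p = 0.38 by limma). Psma3 went the other way: it was at 3.59, 3.65, 3.82 and 3.38 in Prep1f/+ and at 3.83, 3.94, 3.88 and 3.79 in Prep1deltaSM. Here Prep1f/+ replicate 3 reached into the range of the other group, and the difference was 0.25 ± 0.11 (SE, adjusted p = 0.30 by limma). The other Psma3 probes, both placed on other transcripts of the locus, had differences of 0.042 ± 0.12 and -0.15 ± 0.49 (SE). The remaining alpha subunits Psma7, Psma1, Psma4 and Psma6 differed by -0.13, -0.096, -0.059 and 0.019 at their brightest probes, each with overlapping groups. A dimmer Psma7 probe, placed on another transcript, had a difference of -0.52 ± 0.17 (SE, adjusted p = 0.18 by limma over probes), with all Prep1deltaSM values below all Prep1f/+ values.

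The beta subunits with active sites are Psmb5, Psmb6 and Psmb7, which cut after hydrophobic, acidic and basic residues. Psmb5 was at 5.79, 5.88, 5.72 and 5.60 in Prep1f/+ and at 5.57, 5.52, 5.72 and 5.79 in Prep1deltaSM, and the ranges overlapped almost fully (difference -0.097 ± 0.099, SE). Psmb6 was at 6.21, 6.35, 6.18 and 6.33 against 6.04, 6.11, 6.19 and 6.10, where only Prep1deltaSM replicate 3 reached the Prep1f/+ range (difference -0.16 ± 0.080, SE). Psmb7 was at 5.30, 5.19, 5.16 and 5.07 against 4.74, 4.99, 4.99 and 5.06, and its groups did not overlap (difference -0.24 ± 0.099, SE). Adjusted p-values of the 3 genes were 0.65, 0.37 and 0.30 by limma. All 3 point estimates were negative, and the 95% confidence intervals of Psmb5 and Psmb6 included 0.

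Psmb3 and Psmb2, structural subunits of the beta ring, differed in opposite directions. Psmb3 was at 6.89, 7.01, 6.82 and 6.85 in Prep1f/+ and at 6.51, 6.59, 6.65 and 6.72 in Prep1deltaSM, a difference of -0.27 ± 0.085 (SE, adjusted p = 0.21 by limma). No value was shared between the groups, and the second Psmb3 probe had a difference of -0.20 ± 0.077 (SE) with no overlap either. Psmb2 was at 0.18, 0.69, 1.05 and 0.57 in Prep1f/+ and at 1.18, 1.35, 0.91 and 0.90 in Prep1deltaSM. Its difference of 0.46 ± 0.19 (SE, adjusted p = 0.29 by limma) was the highest of all members, and the spread within Prep1f/+ was 0.36 (SD, n = 4). The remaining structural subunits Psmb4 and Psmb1 differed by -0.15 and 0.051, with overlapping groups.

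In the 19S particle, 11 of 20 genes were lower and 9 higher, with a median difference of -0.018. This median turned positive with quantile normalization, normexp, averaged probes or every probe as its own row. It was also positive in the authors' values, which lacked Psmc4, Psmc5 and Psmd2. The 6 ATPases had a median of -0.075 (4 lower and 2 higher) and the 14 other subunits of 0.0088 (7 lower and 7 higher). The mean difference of those 14 was -0.055, opposite in sign to their median, and it includes Psmd13 at -0.66. At an unadjusted p under 0.05, 2 genes of the particle were lower and 1 was higher.

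Psmc3, an ATPase of the base, had a positive difference. Its signal was 3.32, 3.33, 3.32 and 3.21 in Prep1f/+ and 3.53, 3.63, 3.59 and 3.45 in Prep1deltaSM. All 4 Prep1deltaSM mice lay above all 4 Prep1f/+ mice, with a difference of 0.25 ± 0.078 (SE, adjusted p = 0.21 by limma), and within slides 1 to 4 the difference was 0.20, 0.31, 0.13 and 0.37. The ATPase Psmc4 was at 4.62, 4.86, 4.70 and 4.77 in Prep1f/+ and at 4.49, 4.57, 4.50 and 4.62 in Prep1deltaSM. These groups met without overlapping, at 4.62, and the difference was -0.19 ± 0.083 (SE, adjusted p = 0.31 by limma). Psmc5, also an ATPase, was at 5.05, 5.23, 5.12 and 4.97 against 4.76, 4.92, 4.86 and 5.10 at its brightest probe, with overlapping groups (difference -0.18 ± 0.10, SE). The other ATPases, Psmc2, Psmc1 and Psmc6, differed by -0.10, -0.049 and 0.061, again with overlap.

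Of the subunits that are not ATPases, Psmd7, the scaffold partner of the deubiquitinase Psmd14, had the smallest p. It was at 4.92, 4.99, 4.88 and 4.86 in Prep1f/+ and at 4.46, 4.52, 4.67 and 4.74 in Prep1deltaSM. All Prep1deltaSM values were the lower ones, and the difference was -0.32 ± 0.089 (SE, adjusted p = 0.19 by limma). A second probe of the same transcript had a difference of -0.18 ± 0.082 (SE) without overlap, and a probe placed on another transcript had 0.10 ± 0.13 (SE). With quantile normalization the gene stayed at -0.25. The authors' values gave 0.12, but only part of their rows was used, and which Psmd7 probe stood for the gene there was not settled. Psmd14 itself differed by 0.041 ± 0.083 (SE).

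Psmd3 was at 6.79, 6.87, 6.72 and 6.61 in Prep1f/+ and at 6.58, 6.54, 6.55 and 6.65 in Prep1deltaSM (difference -0.17 ± 0.084, SE). Psmd11 was at 5.62, 5.81, 5.68 and 5.58 against 5.45, 5.49, 5.38 and 5.66 (difference -0.18 ± 0.093, SE). Both are structural subunits of the lid, and in both genes 1 Prep1deltaSM mouse, replicate 4, lay within the Prep1f/+ range. Their adjusted p-values were 0.37 and 0.38 by limma. Among the remaining subunits of the 19S particle, Psmd4, which holds a ubiquitin receptor, had the highest estimate at 0.20 ± 0.14 (SE), followed by Psmd6, of the lid, at 0.17 ± 0.092 (SE). Psmd5, Psmd9 and Psmd10, chaperones of 19S assembly, differed by 0.10, 0.086 and -0.033, Psmd8 and Psmd12 by 0.10 and 0.020, and Psmd1, the large scaffold of the base, by -0.0023. All of these had overlapping groups.

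The lowest estimate of all members, that of the lid subunit Psmd13, came from 2 mice, and the gene is described here because its values were seen. It was at 2.61, 1.33, 1.18 and 2.92 in Prep1f/+ and at 1.32, 1.29, 1.35 and 1.43 in Prep1deltaSM. Prep1f/+ replicates 1 and 4 lay at least 1.18 above the other 6 arrays, which ran from 1.18 to 1.43. The difference was -0.66 ± 0.38 (SE, adjusted p = 0.42 by limma). The same arrays stood above the other 6 by more than 1 in 35 of the 16015 genes, of which Psmd13 was the only proteasome gene, and below them in 2. These are the replicates that stood apart on the first principal component. Without them, 32 proteasome genes had negative and 11 positive differences (median -0.11), beside a median of -0.088 over all 16015 genes. None of the proteasome genes passed an adjusted p of 0.05 by limma. At an unadjusted p under 0.05, 6 of them were lower and 0 higher, beside 1806 lower and 880 higher of all genes.

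Of the 4 activator genes, 3 were lower and 1 was higher, with a median difference of -0.10. This median was -0.042 with quantile normalization and -0.0061 with normexp. It was -0.0068 in the authors' values, which lacked Psme2. Psme2, a subunit of the activator ring induced by interferon, was at 4.59, 4.58, 4.61 and 4.55 in Prep1f/+ and at 4.37, 4.40, 4.46 and 4.47 in Prep1deltaSM. The groups did not overlap at either of its probes, and the difference was -0.15 ± 0.071 (SE, adjusted p = 0.34 by limma). Psme1, its partner in the ring, differed by 0.045 ± 0.097 (SE). Psme3, which forms the activator of the nucleus, was at 5.94, 5.99, 6.01 and 5.70 against 5.56, 5.64, 5.50 and 5.96, where Prep1deltaSM replicate 4 lay among the Prep1f/+ values (difference -0.25 ± 0.13, SE). Psme4, a single-chain activator, was at 6.31, 6.61, 6.56 and 6.48 against 6.38, 6.49, 6.50 and 6.39 at its brightest probe (difference -0.050 ± 0.091, SE).

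The 5 genes of the inhibitor Psmf1 and the assembly chaperones Psmg1 to Psmg4 held the smallest p of all members. The chaperones form pairs, Psmg1 with Psmg2 and Psmg3 with Psmg4, that help to build the alpha ring. Psmg4 was at 1.03, 0.76, 0.79 and 1.15 in Prep1f/+ and at 0.29, 0.43, 0.41 and 0.34 in Prep1deltaSM. The signal was thus 1.48-fold lower in Prep1deltaSM (log2 difference -0.56 ± 0.11, SE; 95% confidence limits -0.81 and -0.32; adjusted p = 0.13 by limma). The lowest Prep1f/+ value, 0.76, lay above the highest Prep1deltaSM value, 0.43, and within slides 1 to 4 the difference was -0.47, -0.36, -0.69 and -0.73.

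Psmg3, the partner of Psmg4, was at 2.15, 2.13, 1.95 and 2.14 in Prep1f/+ and at 1.90, 1.85, 1.87 and 1.87 in Prep1deltaSM. The groups did not overlap, and the difference was -0.22 ± 0.079 (SE, adjusted p = 0.25 by limma). Psmg2, of the other pair, was at 2.46, 2.33, 2.44 and 2.29 in Prep1f/+ and at 2.55, 2.55, 2.58 and 2.51 in Prep1deltaSM. Every Prep1deltaSM value was the higher one (difference 0.16 ± 0.077, SE, adjusted p = 0.34 by limma). Psmg1 differed by -0.045 ± 0.099 (SE) and Psmf1 by -0.11 ± 0.086 (SE), both with overlapping groups. The 3 chaperones whose groups did not overlap thus differed in direction between the pairs.

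**Figure D2:**
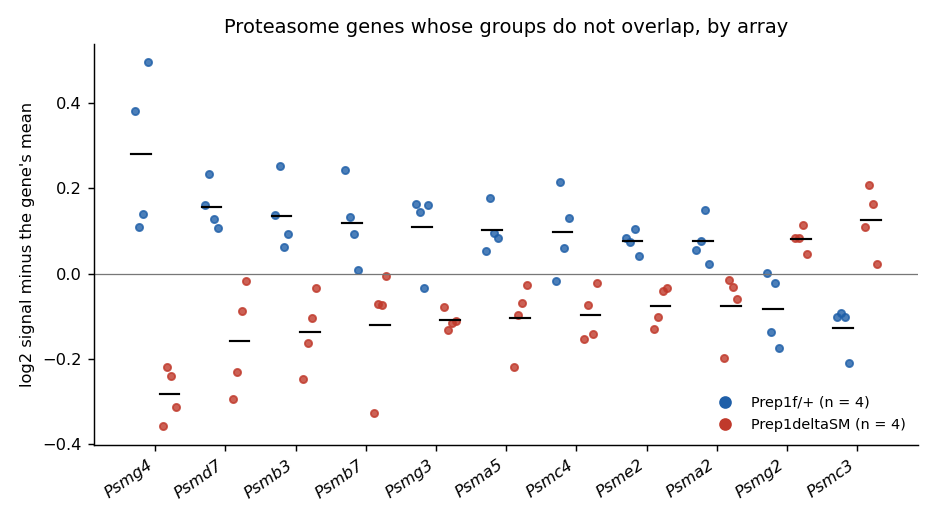
Log2 signal of each array minus the gene's mean over the 8 arrays, for the 11 proteasome genes whose groups do not overlap. Each point is 1 mouse (blue Prep1f/+, red Prep1deltaSM) and black lines are group means. Psmg4 shows the widest gap, at a difference of -0.56, and Psmg2 and Psmc3 lie higher in Prep1deltaSM.

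Averaged over the genes of a class, the mice overlapped between groups for the 20S core and the 19S particle. The class mean, relative to each gene's own mean, ran from -0.056 to 0.095 in Prep1f/+ and from -0.094 to 0.0046 in Prep1deltaSM for the 20S core. It ran from -0.038 to 0.076 and from -0.076 to 0.0096 for the 19S particle. The activators also overlapped, at -0.0019 to 0.12 and -0.16 to 0.045. The 5 inhibitor and assembly genes did not overlap, at 0.054 to 0.11 in Prep1f/+ and -0.13 to 0.0019 in Prep1deltaSM. Their mean includes Psmg4 at -0.56. Without Psmg4 the mean of the other genes of the class overlapped between the groups, with Prep1deltaSM replicate 2 above every Prep1f/+ array. The mean over all genes did not overlap either, at 0.0050 to 0.052 and -0.044 to -0.022.

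Within slides 1 to 4 the 20S core differed by -0.19, -0.068, -0.0061 and 0.039, and the 19S particle by -0.15, -0.026, -0.039 and 0.019. Slide 1 gave the lowest value in both, and slide 4 a positive one. The inhibitor and assembly genes differed by -0.18, -0.063, -0.21 and -0.16. These means include Psmg4, the member with the smallest p, at -0.47, -0.36, -0.69 and -0.73. On slide 2 the other genes of the class differed by -0.098 (Psmg3), -0.048 (Psmf1), 0.10 (Psmg2) and 0.086 (Psmg1). With slide as a block, 3 instead of 7 proteasome genes were lower at an unadjusted p under 0.05, and none passed an adjusted p of 0.05 by limma. Of all 16015 genes, 1609 instead of 1654 were lower at the unadjusted threshold.

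**Figure D3:**
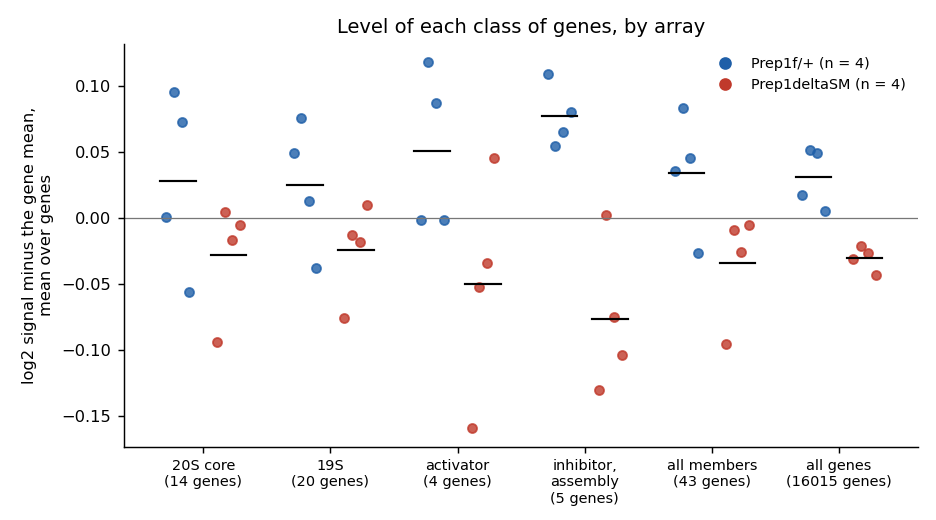
Mean over the genes of each class of the log2 signal minus the gene's own mean, per array. Points are mice (blue Prep1f/+, red Prep1deltaSM, n = 4 each) and black lines are group means. The groups overlap for the 20S core, the 19S particle and the activators. They are separate for all 16015 genes and for the 5 inhibitor and assembly genes, which include Psmg4 at -0.56 and overlap without it.

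Several genes with more than 1 probe had differences of opposite sign at different places, which is why a contrast within transcripts was added after these values were seen. For each transcript with at least 2 kept probes, the signal of the most downstream probe was subtracted from that of the most upstream one on each array, and the groups were compared with limma over all 4569 such transcripts. A positive difference means that the upstream probe, relative to the downstream one, was higher in Prep1deltaSM. It shows unequal differences at the probes, not which probe reports the transcript's level.

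Of the 13 proteasome transcripts with such a pair, 11 had a positive difference and 2 a negative one, with a median of 0.22. Over all 4569 transcripts, 67.7% were positive, with a median of 0.11. The median contrast per array lay between -0.15 and 0.021 in Prep1f/+ and between 0.017 and 0.11 in Prep1deltaSM over all transcripts, an overlap by Prep1f/+ replicate 4 and Prep1deltaSM replicate 4 (exact two-sided permutation p = 0.0571). The lean toward positive differences was thus not particular to the proteasome, which was not tested against it. It was found in pairs whose upstream probe was the dimmer one (median 0.17 over all transcripts) and not in the others (median -0.018).

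Psmd2, the docking subunit for ubiquitin carriers, had the largest contrast of the 13. Its upstream probe was at 1.69, 2.01, 1.82 and 1.58 in Prep1f/+ and at 2.21, 2.21, 2.14 and 2.20 in Prep1deltaSM, a difference of 0.41 ± 0.11 (SE) without overlap. Its downstream probe, the brighter one, was at 5.19, 5.47, 5.33 and 5.16 against 5.12, 5.14, 5.12 and 5.27, with overlapping groups (difference -0.13 ± 0.097, SE). The contrast of both was -3.49, -3.46, -3.52 and -3.58 in Prep1f/+ and -2.90, -2.94, -2.97 and -3.07 in Prep1deltaSM. The difference in contrast was 0.54 ± 0.075 (SE, adjusted p = 0.029 by limma over transcripts), and it was 0.55, 0.58, 0.42 and 0.61 within slides 1 to 4.

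Psmc5, one of the unfolding ATPases, also had differences of opposite sign. Its upstream probe was at 1.01, 1.43, 1.23 and 1.21 in Prep1f/+ and at 1.54, 1.68, 1.56 and 1.45 in Prep1deltaSM (difference 0.34 ± 0.11, SE), and its downstream probe differed by -0.18 ± 0.10 (SE). Its contrast was -4.04, -3.80, -3.89 and -3.76 in Prep1f/+ and -3.22, -3.24, -3.30 and -3.64 in Prep1deltaSM. The difference in contrast was 0.52 ± 0.12 (SE, adjusted p = 0.042 by limma over transcripts). Psmd2 and Psmc5 were the only proteasome transcripts past an adjusted p of 0.05, where 6.39% of all transcripts passed in this direction. Both have a dimmer upstream probe. Of all such pairs 274 of 3204 passed in this direction, and of the others 18 of 1365. The groups did not overlap in 5 proteasome transcripts, Psmd2, Psmc5, Psme4, Psmd14 and Psmc4, all higher, where 15.7% of all transcripts had such a separation.

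These calls depended on the slide term and on single arrays. With slide as a block, no transcript passed, and the adjusted p of Psmd2 and Psmc5 was 0.076 for both (limma). No transcript passed either without Prep1f/+ replicate 2, Prep1f/+ replicate 3, Prep1deltaSM replicate 1, Prep1deltaSM replicate 2 or Prep1deltaSM replicate 3, against 292 higher and 37 lower with all arrays. Psmc5 alone was also lost without Prep1f/+ replicate 1 (adjusted p = 0.072) or Prep1f/+ replicate 4 (adjusted p = 0.0504), while its difference stayed between 0.47 and 0.62 over the arrays left out. The difference of Psmd2 stayed between 0.52 and 0.57.

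The remaining contrasts were smaller or more variable. Psme4 had 0.45 ± 0.13 (SE, adjusted p = 0.067 by limma), and both of its dimmer probes on the same RefSeq transcript had differences of 0.40 ± 0.10 and 0.41 ± 0.099 (SE) without overlap, while its brightest probe had -0.050. Psmd14, the deubiquitinase of the lid, had 0.28 ± 0.075 (SE, adjusted p = 0.058 by limma), with 0.32 at the upstream and 0.041 at the downstream probe. Psmc4 had 0.22 ± 0.083 (SE), Psmg2 0.28 ± 0.13 and Psmd12 0.25 ± 0.11. The upstream probes of Psmg2 and Psmd12 differed by 0.45 and 0.26, both without overlap of the groups. The contrasts of Psmd7, Psmb3, Psma4 and Psme2 lay between 0.012 and 0.13, and those of Psmd9 and Psmf1 were -0.027 and -0.26.

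Signal and position moved together in these pairs. The upstream probe was the dimmer one in 3204 of the 4569 pairs, where the median difference was 0.17, and the brighter one in 1365, where it was -0.018. In the proteasome, all 10 pairs with a dimmer upstream probe had a positive difference (median 0.25), and 1 of the 3 pairs with a brighter one did (median -0.027). By genomic distance between the probes, the median over all transcripts was 0.055 up to 1000 bases, 0.11 from there to 5000, 0.17 to 20000 and 0.14 above that. The part of probe brightness, of array processing and of the RNA in this pattern was not tested.

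**Figure D4:**
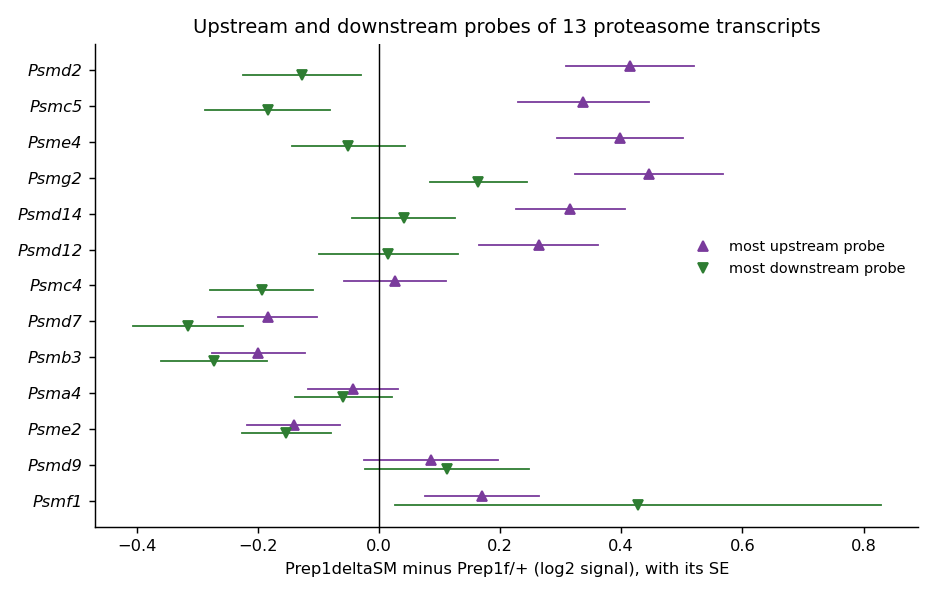
Difference in log2 signal, Prep1deltaSM minus Prep1f/+, at the most upstream probe (purple, pointing up) and the most downstream probe (green, pointing down) of 13 proteasome transcripts, with SE bars. In 11 transcripts the upstream probe lies to the right of the downstream one, by 0.54 in Psmd2 and 0.52 in Psmc5.

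**Figure D5:**
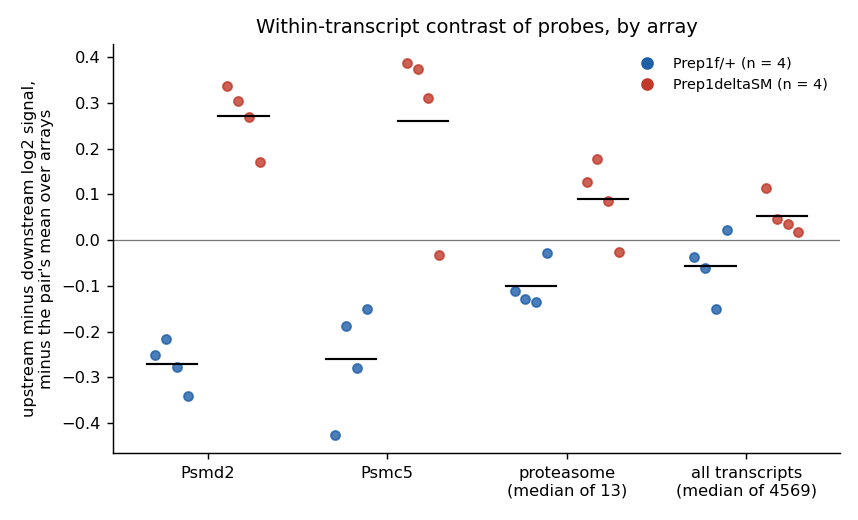
Upstream minus downstream log2 signal per array, relative to the pair's mean over the 8 arrays, for Psmd2, Psmc5, the median of 13 proteasome transcripts and the median of 4569 transcripts. Points are mice (blue Prep1f/+, red Prep1deltaSM, n = 4 each) and black lines are group means. Psmd2 and Psmc5 separate the groups, while the median of all transcripts overlaps in 1 mouse of each group.

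The genes that work with the proteasome were also compared, and none of them passed an adjusted p of 0.05 by limma. Of 12 accessory factors, 11 were lower and 1 was higher (median -0.12), with 4 lower at an unadjusted p under 0.05, against 10.3% of all genes. Usp14, a deubiquitinase of the 19S particle, was the 1 higher gene, at 0.092 ± 0.13 (SE). Pomp, the chaperone that matures the core, differed by -0.19 ± 0.077 (SE), and Shfm1, the smallest 19S subunit, by -0.19 ± 0.080 (SE), both without overlap of the groups. Such separation was found in 3 of the 12, all lower, against 6.74% of all genes.

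Of 13 regulators of proteasome gene transcription, 6 were lower and 7 higher (median 0.0089). Nfyc, a subunit of the CCAAT-binding factor, had the smallest p with a difference of 0.35 ± 0.11 (SE, adjusted p = 0.21 by limma), with no overlap of the groups. Nfe2l1, the factor that induces proteasome genes when proteolysis falls short, had the smallest p among the lower ones, at -0.20 ± 0.12 (SE, adjusted p = 0.42 by limma) with overlapping groups.

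Of 15 p97 and shuttle genes, which extract and deliver tagged proteins, 13 were lower and 2 higher (median -0.061). Ubqln2, a ubiquitin shuttle, had the smallest p among the higher ones, at 0.19 ± 0.12 (SE). Of 15 ubiquitin and conjugation genes, 10 were lower and 5 higher (median -0.074). Uba1, the main ubiquitin-activating enzyme, differed by 0.39 ± 0.12 (SE, adjusted p = 0.22 by limma). Rps27a, which encodes ubiquitin fused to a ribosomal protein, differed by -0.16 ± 0.083 (SE). In both genes, and in Ubqln2, the groups overlapped.

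The 3 immunoproteasome genes, which replace core subunits in immune cells and under interferon, were all lower. Psmb8 differed by -0.43 ± 0.16 (SE, adjusted p = 0.24 by limma), Psmb9 by -0.66 ± 0.29 (SE) and Psmb10 by -0.18 ± 0.095 (SE), and only Psmb8 had groups without overlap. Their mean level, relative to each gene's mean, ran from -0.048 to 0.52 in Prep1f/+ and from -0.59 to -0.017 in Prep1deltaSM.

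Markers of several other cell types also had lower means in Prep1deltaSM. All 10 leukocyte markers tested were lower (median -0.47), with a mean relative level of -0.093 to 0.54 in Prep1f/+ and -0.67 to 0.11 in Prep1deltaSM. Of the fibroblast markers 8 of 10 were lower (-0.15 to 0.35 against -0.66 to 0.33), of the tendon markers 7 of 8 (-0.21 to 0.48 against -0.96 to 0.38) and of the adipocyte markers 6 of 7 (-0.57 to 1.07 against -1.97 to 1.04). The 7 endothelial markers were split 4 to 3, and the 10 muscle markers 5 to 5 (median 0.0072). The groups overlapped in every one of these lists, none of the markers passed an adjusted p of 0.05 by limma, and their part in the proteasome values was not tested. In whole muscle, fewer cells of a type and less RNA per cell cannot be told apart.

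Promoter windows of RefSeq (GRCm38.p6, 250 bases before to 50 after the start) were matched to 37 of the 45 members, with 40 windows, and searched on both strands for 4 short motifs. The half-site TGACAG of PREP and MEIS proteins was found in 15.0% of the member windows and in 19.2% of all 32851 windows. The joint PBX and PREP site TGATTGAC was in 0 of the 40 windows and in 0.77% of all. The antioxidant response core TGACNNNGC was in 15.0% of member windows and 12.4% of all, and the CCAAT box in 32.5% and 37.4%. TGACAG was found at Psmb4, Psmb11, Psmd5, Psmd6, Psmd8 and Psmd10, and the 5 of these that were tested all had an unadjusted p above 0.05. A match is a run of letters in this window and no measure of binding.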

How the data were processed

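Cy3-labelled RNA of 8 mice was measured on 8 Agilent mouse arrays. Per the file headers, spot intensity was deposited after background subtraction and detrending by Feature Extraction 10.5.1.1, without normalization between arrays; the submitters' processing notes name version 9.1. The authors' table of processed intensity values, 32812 rows with medians of 12.7 to 13.2, was found to be linear and quantile-normalized. It served as an alternative for the 26233 rows within 0.1 log2 of the scanner values. These rows held 32 of the 43 proteasome genes tested.

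Log2 intensities were taken relative to the 75th percentile of each array. Spots marked non-uniform, at most 11 on an array, were left out, and repeated spots averaged. A probe needed a signal well above background on 4 or more of the 8 arrays, which kept 24487 of 41174, and the brightest probe stood for its gene. The 16015 genes were fitted with limma 3.58.1 (lmFit, eBayes; R 4.3.3) and p-values adjusted by Benjamini-Hochberg over all of them. The fit was tested on simulated data. The number of arrays limits the precision, and each mouse is 1 replicate, numbered in order of deposit.

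Members and lists were chosen with earlier results of these data known. The contrast of upstream and downstream probes, its splits by brightness and distance, the limit on mean signal, the pattern of Prep1f/+ replicates 1 and 4 and the motifs were chosen after values were seen. The contrast took the outermost kept probes of 1 RefSeq accession on the same strand, at most 1000000 bases apart, with adjustment over 4569 transcripts. Genes given with values on every array were the catalytic subunits, up to 3 genes per class with the smallest p, genes whose groups do not overlap, and genes whose probes differ in sign with one of them at an unadjusted p under 0.05; in other lists, the smallest p per direction, of which 2 genes are not reported here. Psmd13 and the further list genes were named after their values were seen. Alternative scalings were quantile normalization, normexp with an offset of 50 followed by quantile normalization, median centring and the authors' values. Other alternatives were array weights, slide as a block, trended and robust variance, different filters, averaged or separate probes, keeping non-uniform spots, and leaving out each array. The scans were made on 1 day.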

Additional observations from a re-analysis of the deposited data

Results flagged for a closer look

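Among 120 groups of 4 arrays examined, 2 held an array whose gap to the nearest other array was large for the range of the group. Chance flags about 1 in 20 such groups. Psmc3 in Prep1f/+ had its lowest value in replicate 4, at a gap of 0.922 of the range. Psmg3 in Prep1f/+ had its lowest value in replicate 3, at 0.909.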

How the results depend on the processing

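No proteasome gene passed an adjusted p of 0.05 under any alternative; the smallest value, 0.055, was that of Psmd7 with normexp. At an unadjusted p under 0.05, 7 genes were lower in the main fit. They numbered 3 with quantile normalization, with slide as a block and without the filter on dim probes, 4 with median centring and 13 with array weights. Of all 16015 genes, 1654 were lower in the main fit, 1302 with quantile normalization and 1609 with slide as a block. The count over all genes was 1594 with median centring, 2302 with array weights and 1628 of 27398 without the filter. In the authors' values, which held 32 of the 43 genes, 1 proteasome gene was lower, against 922 of 11594 genes in all. Proteasome genes higher numbered 5 with quantile normalization and 7 with normexp (beside 8 lower), against 3 in the main fit. They numbered 1 without the filter on dim probes and 0 without Prep1f/+ replicates 1 and 4. Over all genes these counts were 1124, 1103 (beside 1398 lower), 860 and 880, against 888 in the main fit. With every probe as its own row, 10 of 67 probes, not genes, were higher, against 2365 of all 24487 probes. With each array left out in turn, 3 to 10 proteasome genes were lower and 1 to 3 higher. Over all genes 1178 to 1849 were lower and 641 to 928 higher.

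The median of the 20S core stayed negative: -0.038 with quantile normalization, -0.037 with normexp, -0.033 in the authors' values and -0.15 to -0.089 with each array left out. The median of all genes stayed negative too: -0.029 with quantile normalization, -0.016 with normexp, -0.025 in the authors' values and -0.083 to -0.056 with each array left out. The activator median was -0.0061 with normexp, -0.023 with every probe as its own row, -0.0068 in the authors' values and -0.13 to -0.082 with each array left out. The 19S median was 0.050 with quantile normalization, 0.037 with averaged probes, 0.093 in the authors' values and -0.042 to 0.011 with each array left out. The authors' values held 32 of the 43 genes, so their medians cover fewer genes than the others. With quantile normalization, 24 members were lower and 19 higher.

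Of the 21 genes given with all values, the sign turned for Psmc5 (0.077), Psmd2 (0.14) and Psme4 (0.19) with averaged probes, for Psme4 with quantile normalization (0.0082) and normexp (0.061), and for Psmd7 in the authors' values (0.12). Averaging includes the upstream probes of Psmc5, Psmd2 and Psme4. In the authors' values another probe than the brightest may stand for Psmd7, which was not settled. For the other settings the cause was not tested.

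The within-transcript contrast fell to a median of 0.048 over all transcripts and 0.12 over proteasome transcripts with normexp, and with each array left out it ran from 0.076 to 0.13 and from 0.17 to 0.24. Transcripts past the threshold with a higher contrast numbered 179 with quantile normalization (beside 18 lower), 189 with normexp (beside 25 lower), 0 with slide as a block and 0 to 251 with each array left out. Proteasome transcripts past it numbered 0 with slide as a block and 0 to 2 with each array left out.

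The labels name no pairs of mice, and the replicate numbers follow the order of deposit. Slide, with 1 array of each group, was the block used.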
